A study of Mus musculus with 8 samples.

Results

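Amino acid, sugar and lactate transporters of the solute carrier (SLC) families 1, 2, 3, 7, 16, 38 and 43 were described in CD45+ cells from mouse glioma and from normal mouse brain. The members were all genes whose symbol begins with Slc1a, Slc2a, Slc3a, Slc7a, Slc16a, Slc38a or Slc43a, without Slc2a1 and Slc7a2. They came to 63 of the 31053 genes, and 44 reached 20 unique molecular identifiers (UMIs) in at least 1 cell class and were counted as measured. The measured genes were 10 of 14 in Slc16a, 5 of 7 in Slc1a, 6 of 11 in Slc2a, 9 of 11 in Slc38a, 1 of 2 in Slc3a, all 3 in Slc43a and 10 of 15 in Slc7a. Slc7a6os carries the name of its neighbour Slc7a6 without being a transporter, and it stayed in because the rule goes by name.

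The cells had been enriched magnetically for CD45, a surface protein of blood-derived cells and microglia, and sequenced with droplet kits that read the 3' end of transcripts. The labels give 4 glioma samples and 4 control samples; strain, age and glioma model are not given in the sources used here. The counts form 1 pooled library per group with no map from barcode to sample, so no difference between the groups could be tested against a spread between animals. Each interval given is an exact 95% interval and holds counting error alone. The glioma library held 159689787 UMIs and the control library 124023146 UMIs. In all, 11049 glioma and 13680 control barcodes had at least 1000 UMIs and at most 10% mitochondrial UMIs, with medians of 11332 and 6842 UMIs. Cells were assigned to classes by their UMIs of marker genes, none of them a transporter, which placed 72.1% of the glioma and 92.2% of the control barcodes; 41 barcodes were kept in both libraries. Levels are UMIs scaled to a total of 1000000 per class (CPM), a scale on which every class has the same total.

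The classes used were glioma macrophages (5799 cells), glioma microglia (63), glioma dendritic cells (317), glioma neutrophils (359), glioma T cells (1179), glioma NK cells (87) and keratin-bearing glioma cells (114), with control microglia (12238), control border-associated macrophages (69) and control endothelial cells (120). In each of these, all markers of its own list were at least 2-fold over the other gated cells of the same library. The gates used these same markers, so this follows in part from the gates and is no separate evidence of identity. Glioma microglia had less P2ry12, Tmem119 and Siglech than control microglia, as given below. The keratin-bearing cells had 8.66 CPM of Ptprc, the gene of CD45, and the endothelial cells 18.7 CPM, against 343 CPM in glioma macrophages, so both are classes that the CD45 enrichment was not aimed at. RNA released into the droplet suspension made up an estimated 34.5% of the UMIs in glioma neutrophils, 28.2% in control neutrophils and 9.88% in control T cells; in glioma macrophages it was 5.99% and in control microglia 3.93%.

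Transporters of these families set what a cell can take up and release. Many Slc7 proteins are light chains that reach the membrane with the heavy chain Slc3a2 (CD98hc): Slc7a5 and Slc7a8 carry large neutral amino acids, Slc7a6 and Slc7a7 exchange cationic for neutral ones, and Slc7a11 (xCT) imports cystine for glutathione synthesis while it exports glutamate. Slc38 proteins carry glutamine and other neutral amino acids, Slc1 proteins carry glutamate or, as Slc1a4 and Slc1a5, small neutral amino acids, Slc2 proteins carry hexoses, and the monocarboxylate transporters Slc16a1, Slc16a3 and Slc16a7 carry lactate with the help of the chaperones basigin (Bsg) and embigin (Emb). In the brain, endothelial carriers move nutrients across the blood-brain barrier, and Slc2a5, a fructose transporter, is known as a microglial gene.

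The promoters of 4 members past 2-fold in the comparison with the most cells are printed. Slc7a11 and Slc16a3 were higher, and Slc2a5 and Slc1a3 lower, in glioma macrophages than in control microglia. These 4 were not chosen by the size of the ratio alone: Slc1a5, which is not printed, had a larger ratio than Slc16a3. Slc7a11 (ENSMUSG00000027737) spans chr3:49892526-50443614 on the minus strand and Slc16a3 (ENSMUSG00000025161) chr11:120948480-120960868 on the plus strand. Slc2a5 (ENSMUSG00000028976) spans chr4:150119283-150144169 on the plus strand and Slc1a3 (ENSMUSG00000005360) chr15:8634124-8710764 on the minus strand (GENCODE, GRCm38). The sequences are the 250 bases before the start given in RefSeq's promoter table (GRCm38.p6), 5′ to 3′ on the gene's strand, at chr3:50443614-50443863, chr11:120948817-120949066, chr4:150119094-150119343 and chr15:8710808-8711057; the RefSeq start can differ from the end of the GENCODE gene. Capitals mark matches to the motifs searched.
Slc7a11: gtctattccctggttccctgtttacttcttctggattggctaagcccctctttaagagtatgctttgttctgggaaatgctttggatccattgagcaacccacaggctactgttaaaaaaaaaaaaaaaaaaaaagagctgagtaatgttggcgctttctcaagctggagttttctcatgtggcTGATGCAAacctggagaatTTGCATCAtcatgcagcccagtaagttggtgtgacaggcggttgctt
Slc16a3: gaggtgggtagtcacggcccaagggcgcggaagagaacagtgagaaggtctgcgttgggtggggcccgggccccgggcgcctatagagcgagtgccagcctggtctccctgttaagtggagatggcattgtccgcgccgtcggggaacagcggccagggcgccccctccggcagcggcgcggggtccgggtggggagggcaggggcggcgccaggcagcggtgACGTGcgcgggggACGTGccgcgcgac
Slc2a5: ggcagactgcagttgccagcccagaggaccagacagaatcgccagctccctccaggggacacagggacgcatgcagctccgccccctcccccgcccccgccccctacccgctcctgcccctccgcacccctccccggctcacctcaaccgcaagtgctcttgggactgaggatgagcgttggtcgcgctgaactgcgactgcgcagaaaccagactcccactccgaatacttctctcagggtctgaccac
Slc1a3: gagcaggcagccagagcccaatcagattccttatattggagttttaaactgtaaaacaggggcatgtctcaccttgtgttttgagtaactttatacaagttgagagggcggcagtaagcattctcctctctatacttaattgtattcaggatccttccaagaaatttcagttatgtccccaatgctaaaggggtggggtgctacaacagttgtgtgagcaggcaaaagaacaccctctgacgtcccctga

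The motifs searched on both strands were the element of the amino acid stress factor ATF4 (TGATGNAA), the antioxidant response element (TGACNNNGC), the core of the hypoxia response element (ACGTG or GCGTG), the NR4A monomer element (AAAGGTCA) and a PU.1 element (GAGGAAGT). No match overlapped another in these 4 windows. The Slc7a11 window held the ATF4 element at 2 places, in opposite directions, beginning 66 and 47 bases before the start; 3.45% of all 32851 promoter windows of this length held at least 1. The Slc16a3 window held ACGTG at 2 places, 27 and 14 bases before the start, and 16.6% of all windows held it. The windows of Slc2a5 and Slc1a3 held none of these letters. Of the 44 measured members, 33 had a promoter in the table, some with more than 1 start; 2 of the 33 (Slc7a11 and Slc7a7) held an ATF4 element and 9 held ACGTG. The antioxidant response element was in 5 of the 33, GCGTG in 13, and the NR4A and PU.1 elements in 0. The shares of all windows count windows, and the 33 members had 42. Of these 42 windows, 3 held the ATF4 element and 10 held ACGTG. The antioxidant response element was in 5 of the 42 and in 10.2% of all windows, and GCGTG in 14 and in 28.2%. The NR4A and PU.1 elements were in 1.34% and 2.44% of all windows. These matches describe the letters and do not show binding.

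The 10 classes of 50 or more cells were ranked for each member, and 8 of them led in at least 1. Smaller classes were left out, and some had more than the ranked leader. Slc16a3 had 568 CPM in the 43 control neutrophils and Slc7a6os 66.3 CPM in the 46 control T cells. Control endothelial cells had the highest level of 14 of the 44 measured members (they led in 30.2% of all 14977 genes ranked the same way), among them Slc16a1, Slc16a4, Slc16a9, Slc16a13, Slc1a1, Slc2a12, Slc38a2, Slc38a3, Slc38a5, Slc3a2, Slc7a1, Slc7a5 and Slc7a10. Control microglia led in 10 (13.9% of all genes), which were Slc16a6, Slc1a3, Slc2a5, Slc2a8, Slc38a7, Slc38a9, Slc38a10, Slc43a1, Slc7a7 and Slc7a8. Glioma neutrophils led in 5, which were Slc16a3, Slc2a3, Slc2a6, Slc38a1 and Slc7a11 (8.53% of all genes), and keratin-bearing cells in 2, Slc1a4 and Slc38a4 (13.9%). The counting intervals of the highest and the next class lay apart for 10 of the endothelial, 8 of the microglial, 5 of the neutrophil and 2 of the keratin-bearing leads. They overlapped for every lead of the other 4 classes: 6 of control border-associated macrophages (Slc16a7, Slc16a10, Slc1a2, Slc38a6, Slc7a4 and Slc7a6os; 9.87% of all genes), 3 of glioma microglia (Slc2a9, Slc43a2 and Slc7a14; 3.44%), 3 of glioma NK cells (Slc1a5, Slc43a3 and Slc7a6; 7.33%) and 1 of glioma T cells (Slc16a11; 5.8%). The endothelial count was thus near the share this class had of all genes.

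In all, the 2 intervals overlapped for 19 members. Slc7a10, for example, had 0.748 CPM in endothelial cells from 1 UMI, next to 0.402 CPM in control microglia. Glioma macrophages (2.91% of all genes) and glioma dendritic cells (4.15%) had the highest level of no member, although macrophages were next to neutrophils for Slc7a11, Slc16a3 and Slc38a1. The heavy chain Slc3a2 had UMIs in all 10 classes and ranged from 161 CPM in keratin-bearing cells to 626 CPM in endothelial cells. Slc16a6, Slc1a1, Slc2a12, Slc7a4, Slc7a5, Slc7a7 and Slc7a10 overlap another protein-coding gene on the opposite strand; whether strand was used in counting is not given in the sources used here, so reads of a pair could not be told apart if it was not. The 19 members that were not measured had at most 18 UMIs in any class and were Slc16a5, Slc16a8, Slc16a12, Slc16a14, Slc1a6, Slc1a7, Slc2a2, Slc2a4, Slc2a7, Slc2a10, Slc2a13, Slc38a8, Slc38a11, Slc3a1, Slc7a3, Slc7a9, Slc7a12, Slc7a13 and Slc7a15.

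**Figure D1:**
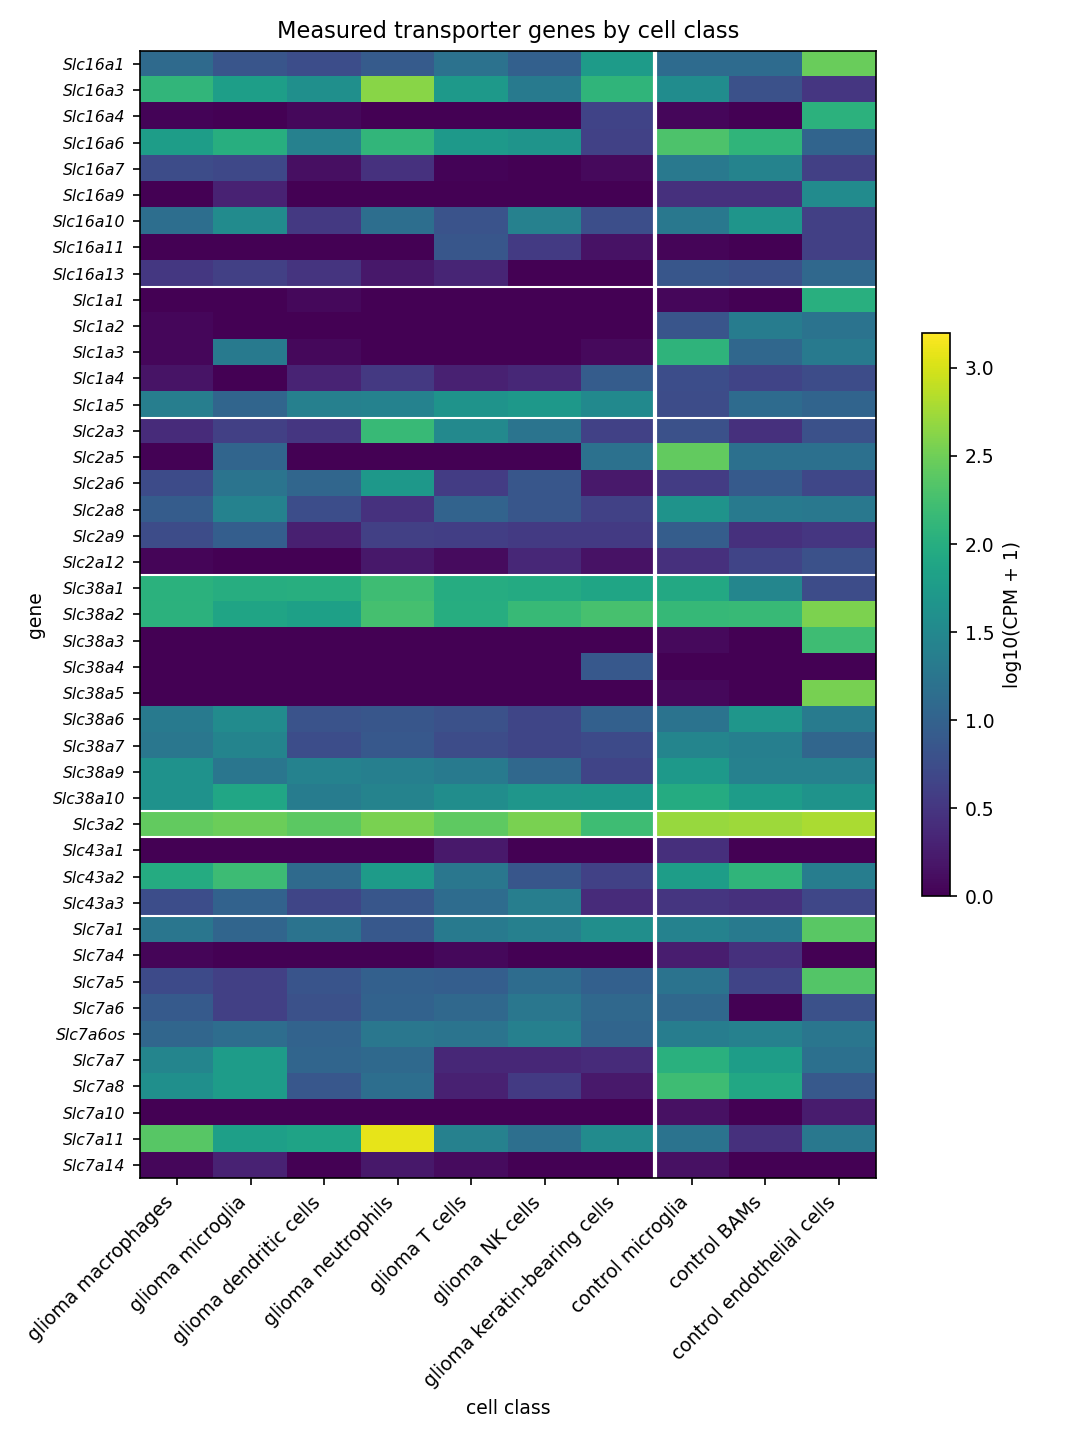
Level of measured members (rows, grouped by family) in the 10 classes with at least 50 cells (columns), as log10 of CPM plus 1. Glioma classes are left of the white line and control classes (with border-associated macrophages, BAMs) right of it. Read along a row, Slc7a11 is highest in glioma neutrophils (1195 CPM), Slc2a5 in control microglia (272 CPM) and Slc38a5 in control endothelial cells (346 CPM).

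The comparison with the most cells set glioma macrophages, phagocytes with few microglial UMIs, against control microglia, the resident macrophages of the brain. The cystine importer Slc7a11 had 236 CPM in glioma macrophages (233 to 239; 20330 UMIs), against 15.3 CPM in control microglia (1337 UMIs), a log2 ratio of 3.94 (3.86 to 4.02). Slc16a3 (MCT4), a lactate exporter of glycolytic cells, had 125 CPM in glioma macrophages against 34.6 CPM in control microglia (log2 ratio 1.85, 1.80 to 1.91). Slc1a5 (ASCT2), which takes up glutamine and other neutral amino acids, had 22.5 CPM against 4.53 CPM (log2 ratio 2.31). These 3 were high in glioma macrophages beyond counting error. In the other direction, the hexose carrier Slc2a5 (GLUT5) had 0.0464 CPM in glioma macrophages, 4 UMIs in 5799 cells, against 272 CPM and 23728 UMIs in control microglia (log2 ratio -12.35, -14.39 to -11.16). Slc1a3 (GLAST), a glutamate importer best known from astrocytes, had 0.151 CPM against 119 CPM (log2 ratio -9.57). Both were close to absent from glioma macrophages and abundant in control microglia.

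Of 38 members whose 2 sums came to 20 UMIs or more, 4 were at least 2-fold higher and 21 at least 2-fold lower in glioma macrophages than in control microglia. Over all 14513 genes with that many UMIs, 15.8% were 2-fold higher and 33.9% were 2-fold lower. Beyond counting error as well were 4 of the higher (15.7% of all genes) and 21 of the lower ones (33.5%). The median log2 ratio was -1.26 over the members (-1.26 with sums at 0 set to 3 UMIs) and -0.40 over all genes. The fourth higher member was Slc43a3, a nucleobase carrier, at 4.74 CPM in glioma macrophages against 2.12 CPM in control microglia; without cells that held a UMI of the cycle genes Mki67 or Top2a its log2 ratio was -0.26 in place of 1.16.

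The lower members included light chains that pair with Slc3a2. Slc7a8 (LAT2) had 38.2 CPM in glioma macrophages against 161 CPM in control microglia, a log2 ratio of -2.07. Slc7a7 (y+LAT1) had 27.3 CPM against 107 CPM and Slc7a5 (LAT1) 4.201 CPM against 15.7 CPM, in the same order. Slc3a2 itself had 265 CPM in glioma macrophages against 506 CPM in control microglia, just short of 2-fold (log2 ratio -0.93). Slc7a6 (y+LAT2) had 7.15 CPM against 10.9 CPM, also below 2-fold. These chains were thus lower in glioma macrophages, as was their heavy chain, while Slc7a11 was higher.

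Among the monocarboxylate family, Slc16a6 (MCT7) had 59.8 CPM in glioma macrophages against 201 CPM in control microglia, and Slc16a7 (MCT2), a lactate carrier of high affinity, 4.48 CPM against 18.6 CPM. Slc16a1 (MCT1) had 11.9 CPM against 11.99 CPM, a ratio whose interval included equal levels. Among hexose carriers, Slc2a8 (GLUT8) had 7.43 CPM against 42.8 CPM and Slc2a3 (GLUT3) 1.497 CPM against 5.14 CPM. Of the lactate carriers, Slc16a3 was thus higher, Slc16a7 lower and Slc16a1 level on the CPM scale.

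Several of the largest ratios downward belonged to members with few UMIs even in control microglia. Slc1a2 (GLT-1), the main glutamate importer of astrocytes, had 0.128 CPM in glioma macrophages against 5.91 CPM in control microglia, and Slc1a4 (ASCT1) 0.476 CPM against 4.72 CPM. Slc16a9, Slc2a12 and Slc7a4 had 2 to 10 UMIs in glioma macrophages, against 72 to 156 UMIs in control microglia. Slc43a1 (LAT3) had 0 UMIs in glioma macrophages against 148 in control microglia, at least 48.8-fold lower with 3 UMIs set for the sum at 0, and Slc7a10 had 0 against 35, at least 11.5-fold lower.

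Most of the Slc38 family and Slc43a2 stayed nearer to equal levels. Slc38a1 (SNAT1) had 111 CPM in glioma macrophages against 85.2 CPM in control microglia, and Slc38a2 (SNAT2), which amino acid shortage is known to induce, 112 CPM against 138 CPM. Slc38a9, a lysosomal arginine sensor upstream of mTORC1, had 42.1 CPM against 52.9 CPM. Slc43a2 (LAT4), a carrier of branched-chain amino acids, phenylalanine and methionine, had 91.8 CPM against 59.01 CPM. None of these reached 2-fold, while the intervals of their CPM ratios did not include equal levels. A second scaling, given below, raised all log2 ratios of this comparison by more than Slc38a2 and Slc38a9 lay under equal levels. The direction of Slc38a2 and Slc38a9 thus depended on the scaling. Slc38a10 was 2-fold lower, at 42.4 CPM against 91.6 CPM, and so was Slc7a6os, at 10.2 CPM against 22.02 CPM. Slc16a13, at 2.31 CPM against 6.15 CPM, and Slc7a14, on 11 UMIs against 35, were 2-fold lower as well. The remaining members were within 2-fold. Slc2a6 and Slc38a6 had log2 ratios of 0.70 and 0.35, and Slc16a10, Slc7a1, Slc38a7 and Slc2a9 lay between -0.75 and -0.44.

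Other genes of the transporters' pathways were counted by the same rule, from lists chosen by function. The counts here and in the next paragraph are read against all genes, of which 15.8% were 2-fold higher and 33.9% 2-fold lower. Of the 2 chaperones of lactate transporters, Emb had 358 CPM in glioma macrophages against 5.53 CPM in control microglia, while Bsg had 227 CPM against 432 CPM. Of 11 glutathione and redox genes, 3 were 2-fold higher and 0 lower: thioredoxin (Txn1) had 806 CPM against 78.5 CPM, glutathione reductase (Gsr) 156 CPM against 18.8 CPM and thioredoxin reductase (Txnrd1) 179.8 CPM against 78.9 CPM. Gclc, the catalytic subunit of the first enzyme of glutathione synthesis, had 31.8 CPM against 52.2 CPM. The higher redox genes thus belonged to disulfide reduction, and the synthesis enzyme was not among them.

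Of 10 tested amino acid stress genes, 3 were 2-fold higher in glioma macrophages (Trib3, Asns and Mthfd2) and 1 lower, the serine synthesis enzyme Phgdh, at 6.04 CPM in glioma macrophages against 128 CPM in control microglia; Atf4 had 149 CPM against 200.5 CPM. Of 7 glutamine and glutamate enzymes, Got1 was higher (432 CPM against 46.6 CPM) and glutamine synthetase (Glul) lower (61.6 CPM against 946 CPM). Of 8 lactate enzymes and hypoxia regulators, Ldha (574 CPM against 173 CPM) and Hif1a (332 CPM against 141 CPM) were higher, and Ldhb (24.6 CPM against 608 CPM), Pfkfb3, Pdk1 and Hk2 lower. Of 4 branched-chain and tryptophan enzymes Kmo and Kynu were higher and Bcat1 lower, and of 5 amino acid sensing genes Rragd was lower.

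Stress RNA and depth moved with this comparison: Jun had 608 CPM in glioma macrophages against 2369 CPM in control microglia, and the median cell held 13540 UMIs against 6885 UMIs. Their part in the ratios was not tested. Cell type and library differ together here and cannot be told apart. Scaling by edgeR's trimmed mean of M values (TMM) raised all log2 ratios of this comparison by 0.37; the counts of higher and lower members stayed within 1.5 times of those given.

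Shares of cells with a UMI, which come from the same UMIs as the levels, were taken as well. With every cell thinned to 2000 UMIs, a UMI of Slc7a11 was found in 30.3% of glioma macrophages (29.1 to 31.5%, exact Clopper-Pearson interval) and in 2.07% of control microglia (1.81 to 2.35%). Before thinning the shares were 67.7% in glioma macrophages and 5.68% in control microglia. Slc16a3 was found in 21.3% of thinned glioma macrophages and 6.396% of control microglia. Thinning left out 24 glioma macrophages and 1028 control microglia with fewer UMIs.

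The 63 glioma microglia passed the same gate as the control microglia they were set against. The class still differed in the genes that define it: P2ry12 had 113 CPM in glioma microglia against 2234 CPM in control microglia, Tmem119 194 CPM against 1440 CPM and Siglech 36.05 CPM against 1055 CPM. Ccr2, a receptor of monocytes, had 41.1 CPM in glioma microglia against 4.44 CPM in control microglia. The part of these markers in the transporter ratios was not tested.

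Of 38 members tested, 7 were at least 2-fold higher (12.4% of all genes) and 8 at least 2-fold lower (15.3% of all genes) in glioma microglia than in control microglia. Of these, 6 higher (8.12% of all genes) and 8 lower members (12.8%) had intervals without equal levels. Slc7a11 had 63.1 CPM in glioma microglia against 15.3 CPM in control microglia (log2 ratio 2.05, 1.65 to 2.40), with UMIs in 23 of the 63 cells. The lysosomal hexose carrier Slc2a6 (GLUT6) had 16.02 CPM against 2.69 CPM and Slc43a2 153 CPM against 59.01 CPM. Slc38a6 had 34.04 CPM against 15.7 CPM and Slc43a3 9.01 CPM against 2.12 CPM. Slc7a14 was higher on 1 UMI, with an interval that included equal levels, and Slc1a5 on 10 UMIs. Slc16a3 had 61.1 CPM against 34.6 CPM, below 2-fold.

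Slc2a5 had 10.01 CPM in glioma microglia, 10 UMIs in 10 cells, against 272 CPM in control microglia (log2 ratio -4.70, -5.83 to -3.89). Slc1a3 had 19.02 CPM against 119 CPM (log2 ratio -2.61), Slc7a8 58.1 CPM against 161 CPM and Slc38a9 17.02 CPM against 52.9 CPM. Slc7a1 (CAT1), an importer of arginine and lysine, Slc7a5, Slc7a6 and Slc16a7 were lower on 3 to 10 UMIs each. With a gate that asked for more microglial RNA, the log2 ratio of Slc2a5 was -3.19, that of Slc1a3 -2.00, and that of Slc1a5 -1.13 in place of 1.21. Slc7a11 kept its direction with that gate.

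**Figure D2:**
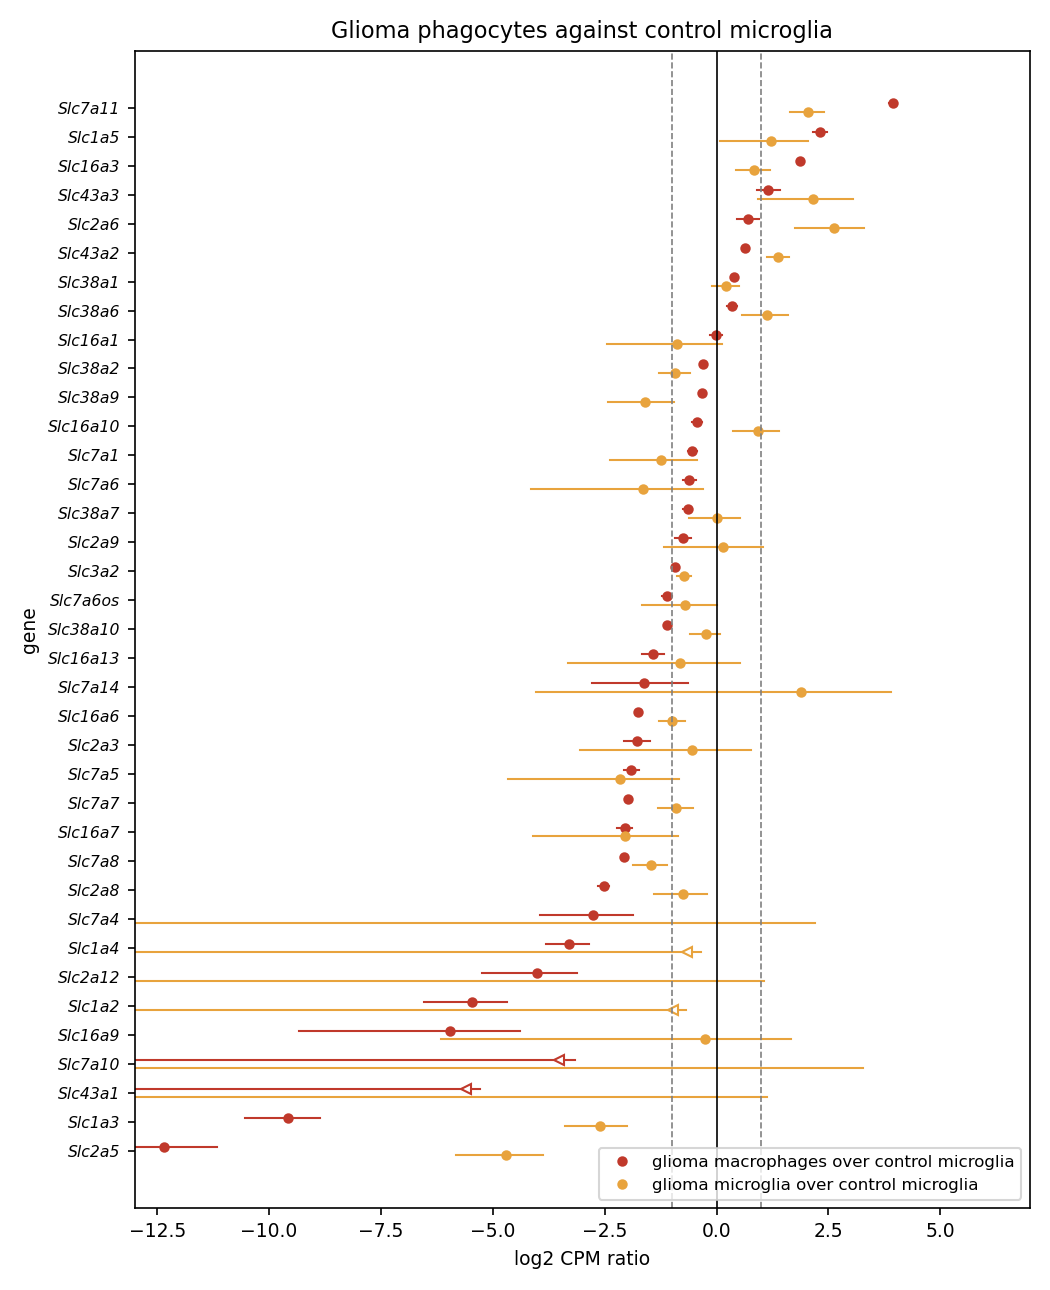
Log2 CPM ratio of tested members in glioma macrophages (red) and glioma microglia (orange), each over control microglia, with exact 95% counting intervals as lines; open triangles mark bounds for sums at 0 UMIs, lines without a point have no usable bound, and dashed lines mark 2-fold. Slc7a11 lies to the right in both (3.94 in macrophages and 2.05 in microglia) and Slc2a5 to the left (-12.35 in macrophages and -4.70 in microglia).

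Both glioma classes were set against the same control microglia, so these ratios share their denominator. Set against each other, of 29 members tested 5 were at least 2-fold higher (5.79% of all genes) and 7 at least 2-fold lower (13.5% of all genes) in glioma macrophages than in glioma microglia. Intervals were clear of equal levels for 4 of the higher (4.21% of all genes) and 5 of the lower members (7.04%). The higher count was 2 with at most 5% mitochondrial UMIs, 2 with the gate that asked for more microglial RNA and 3 without cycling cells. Slc7a11 had 236 CPM in glioma macrophages against 63.1 CPM in glioma microglia and Slc16a3 125 CPM against 61.1 CPM. Slc1a3 had 0.151 CPM against 19.02 CPM, Slc2a6 4.36 CPM against 16.02 CPM and the aromatic amino acid carrier Slc16a10 (TAT1) 13.4 CPM against 34.04 CPM. Also higher were Slc38a9 (42.1 CPM against 17.02 CPM), Slc1a5 (22.5 CPM against 10.01 CPM) and, from 3 UMIs in glioma microglia, Slc7a6, and also lower were Slc2a8 (7.43 CPM against 25.03 CPM), Slc7a7 (27.3 CPM against 57.1 CPM) and, from 3 and 9 UMIs in glioma microglia, Slc2a3 and Slc43a3; the intervals of Slc7a6, Slc2a3 and Slc43a3 included equal levels. Slc43a2 and Slc38a6, past 2-fold in glioma microglia over control microglia, were within 2-fold here (91.8 CPM against 153 CPM and 19.96 CPM against 34.04 CPM). This comparison, that of the neutrophils of both libraries and that of CD4 with CD8 T cells were added after the data had been seen.

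Within glioma macrophages, cells gated by Arg1, an arginine-degrading enzyme, were set against cells gated by Cxcl9, an interferon-induced chemokine. Of 28 members tested, 0 were at least 2-fold higher (3.62% of all genes) and 1 at least 2-fold lower (5.25% of all genes) in the 737 Arg1-gated cells than in the 2138 Cxcl9-gated cells. Beyond counting error as well were 0 of the higher (3.26% of all genes) and 1 of the lower ones (4.26%). The lower one was Slc43a3, at 2.31 CPM against 6.91 CPM. Smaller differences lay outside counting error in both directions. Slc7a11 had 308 CPM in Arg1-gated cells against 199 CPM in Cxcl9-gated cells (log2 ratio 0.63, 0.57 to 0.69), Slc16a3 164 CPM against 101 CPM, Slc7a8 59.6 CPM against 34.5 CPM and Slc16a1 17.3 CPM against 11.3 CPM. Slc1a5 had 16.2 CPM against 25.9 CPM, Slc7a5 2.73 CPM against 5.08 CPM and Slc7a1 14.5 CPM against 19.1 CPM. Slc7a11, Slc16a3, Slc16a1 and Slc7a8 were thus higher, and Slc1a5, Slc7a5 and Slc7a1 lower, in Arg1-gated than in Cxcl9-gated cells, each by less than 2-fold. Among the carriers of large neutral amino acids, Slc7a8 and Slc7a5 went opposite ways.

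Beside the pathway counts here stand 3.62% of all genes 2-fold higher and 5.25% 2-fold lower. Of 10 tested amino acid stress genes 4 were 2-fold lower in Arg1-gated cells (Asns, Phgdh, Shmt2 and Chac1, the last from 1 UMI against 24). Psat1, another serine synthesis enzyme, was just short of 2-fold. Of 10 redox genes haem oxygenase (Hmox1) was 2-fold higher, 665 CPM in Arg1-gated cells against 319 CPM in Cxcl9-gated cells, and of 3 branched-chain and tryptophan enzymes the kynurenine enzymes Kmo and Kynu were lower.

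On the CPM scale, neutrophils had more Slc7a11, Slc16a3, Slc2a3 and Slc2a6 than macrophages. The 359 glioma neutrophils held 1640405 UMIs in all and the 5799 glioma macrophages 86161197 UMIs. CPM gives shares of these totals, and levels per cell can differ from it. For Slc16a3 the sums were 694 UMIs in neutrophils and 10785 UMIs in macrophages. Of 28 members tested, 7 were at least 2-fold higher (15.3% of all genes) and 8 at least 2-fold lower (15.2% of all genes) in glioma neutrophils than in glioma macrophages. Of these, 7 higher (11.0% of all genes) and 6 lower members (12.8%) had intervals without equal levels. Slc7a11 had 1195 CPM in glioma neutrophils (1143 to 1249) against 236 CPM in glioma macrophages. Slc16a3 had 423 CPM against 125 CPM. Free RNA would give an estimated 36.9 CPM of the Slc7a11 and 23.4 CPM of the Slc16a3 in glioma neutrophils, a small part of each level.

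Hexose carriers went both ways. Slc2a3 (GLUT3), a glucose carrier of high affinity, had 141 CPM in glioma neutrophils against 1.497 CPM in glioma macrophages (log2 ratio 6.55, 6.24 to 6.88), and Slc2a6 49.4 CPM against 4.36 CPM. Slc16a6 had 127 CPM against 59.8 CPM, and Slc1a4 and Slc7a5 were higher on 4 and 14 UMIs. Slc7a7, Slc7a8, Slc7a1, Slc38a6, Slc38a7, the hexose carrier Slc2a8, Slc16a7 and Slc16a13 were lower, with 1 to 22 UMIs each in glioma neutrophils, and with relaxed gates 4 members were lower in place of 8. Of the 13.4 CPM of Slc7a8 in glioma neutrophils, free RNA would give an estimated 8.495 CPM.

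The 43 control neutrophils were within 2-fold of the glioma ones in 4 of the 5 members that glioma neutrophils led in. Slc7a11 had 1195 CPM in glioma neutrophils against 748 CPM in control neutrophils, Slc16a3 423 CPM against 568 CPM, Slc2a3 141 CPM against 115 CPM and Slc2a6 49.4 CPM against 32.5 CPM. Slc7a11 was higher (log2 ratio 0.67, 0.50 to 0.86) and Slc16a3 lower (-0.43, -0.64 to -0.20) in glioma neutrophils beyond counting error. The intervals of Slc2a3 and Slc2a6 included equal levels. A UMI of Slc7a11 was found in 286 of 359 glioma neutrophils and in 40 of 43 control neutrophils, and after thinning in 69.01% and 65.9% in the same order. Of 17 members tested, 3 were at least 2-fold higher (18.7% of all genes) and 3 at least 2-fold lower (10.4% of all genes) in glioma neutrophils. Intervals were clear of equal levels for 2 of the higher (15.1% of all genes) and 2 of the lower members (8.78%). Slc38a1, the fifth member that glioma neutrophils led in, had 159 CPM against 47.5 CPM, and Slc1a5 25.6 CPM against 2.502 CPM with the control value from 1 UMI. Slc38a9 was higher on 38 UMIs against 4, with an interval that included equal levels.

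The lower ones were Slc2a5, Slc7a7 and Slc7a8, which control microglia lead in. Slc2a5 had 0 UMIs in glioma neutrophils against 22 UMIs and 55.04 CPM in control neutrophils, where free RNA of that library would give an estimated 66.1 CPM. With free RNA subtracted from both sums, 0 members were 2-fold lower, and the log2 ratio of Slc7a8 was 2.12 in place of -1.07.

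The pathway lists are read against the 15.3% of all genes that were 2-fold higher and the 15.2% that were 2-fold lower in glioma neutrophils than in glioma macrophages. Of 10 tested amino acid stress genes, 4 were 2-fold higher in glioma neutrophils than in glioma macrophages and 2 lower (Psat1 and Trib3). The higher ones were the glutathione-degrading enzyme Chac1 (9.14 CPM against 0.418 CPM), Sesn2 (99.98 CPM against 18.1 CPM), Ddit3 (199.95 CPM against 58.1 CPM) and Asns (14.6 CPM against 5.397 CPM). Of 10 redox genes 3 were higher: Gsr (480.4 CPM against 156 CPM), the redox regulator Nfe2l2 (518 CPM against 225 CPM) and Txnrd1 (381 CPM against 179.8 CPM). Of 8 lactate enzymes and hypoxia regulators Pfkfb3 was higher and Ldhb lower, and Ldha had 578 CPM in glioma neutrophils and 574 CPM in glioma macrophages.

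**Figure D3:**
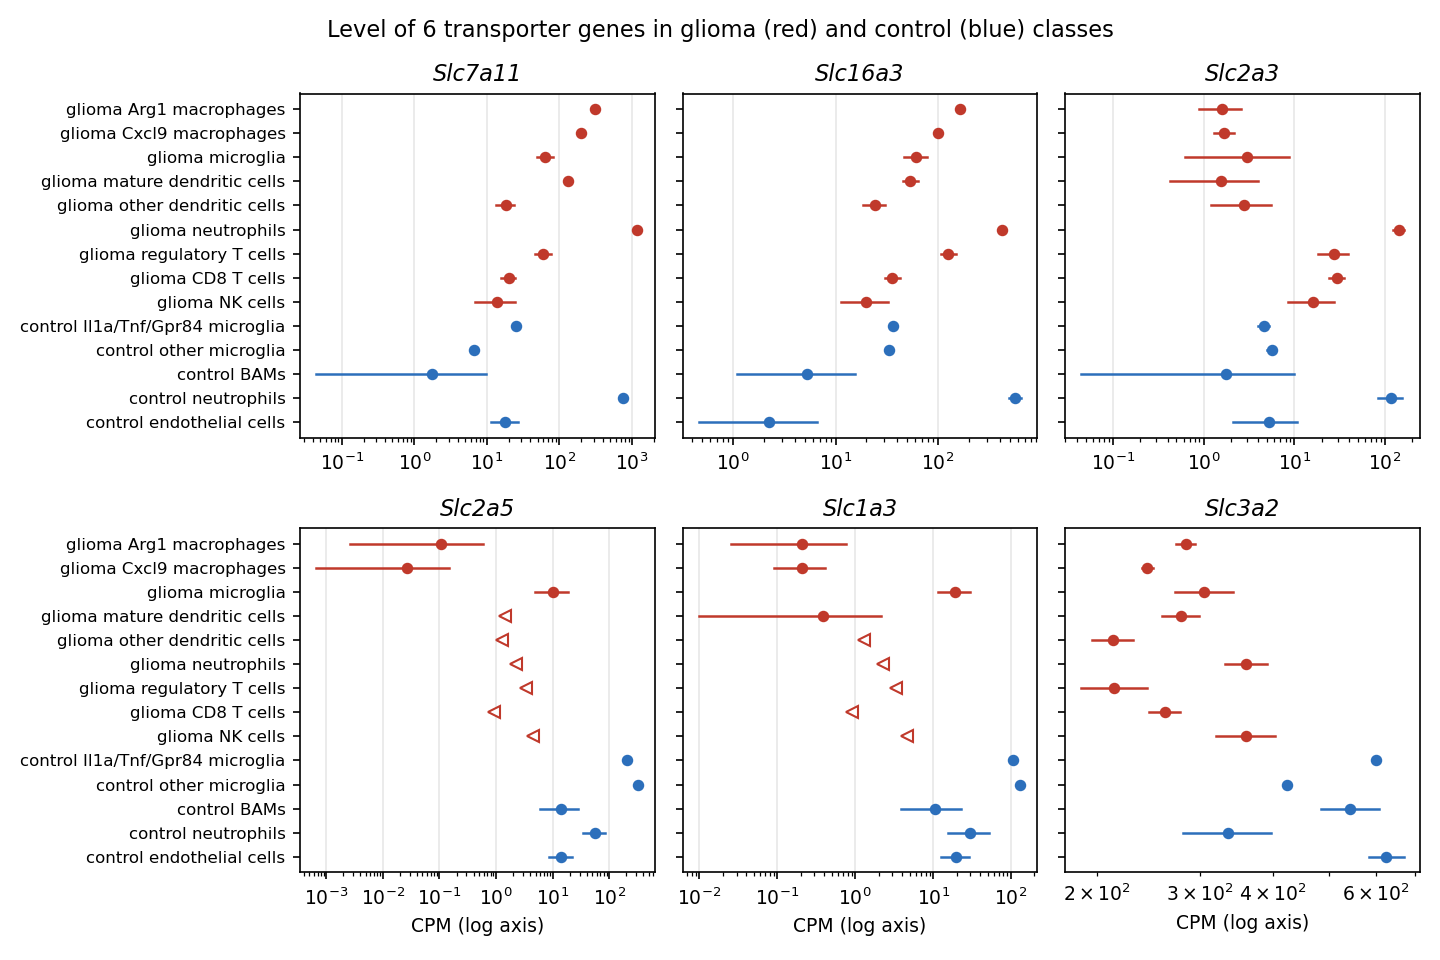
Level in CPM (log axis) of 6 members in glioma classes (red, upper rows) and control classes (blue, lower rows), with exact 95% counting intervals; open triangles are upper limits where no UMI was found. Slc7a11 and Slc16a3 are highest in the neutrophils of both libraries, and Slc2a5 and Slc1a3 in control microglia.

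Dendritic cells had less than macrophages of many members. Of 28 members tested, 2 were at least 2-fold higher (10.5% of all genes) and 13 at least 2-fold lower (13.9% of all genes) in glioma dendritic cells than in glioma macrophages, with a median log2 ratio of -0.75 over the members and -0.16 over all genes. Beyond counting error as well were 1 of the higher (8.79% of all genes) and 13 of the lower ones (12.4%). Slc43a2 had 11.9 CPM in dendritic cells against 91.8 CPM in macrophages, Slc7a8 6.41 CPM against 38.2 CPM and Slc16a10 2.38 CPM against 13.4 CPM. Slc38a6, Slc38a7 and Slc7a7 were lower as well, with log2 ratios between -1.85 and -1.43, and Slc16a7 and Slc2a9 on 2 and 5 UMIs in dendritic cells. Slc7a11 had 71.7 CPM against 236 CPM and Slc16a3 38.1 CPM against 125 CPM. These carriers of branched-chain, neutral and aromatic amino acids, cystine and lactate were thus lower. Slc2a6 was higher in dendritic cells, 10.3 CPM against 4.36 CPM, as was Slc1a4 on 6 UMIs with an interval that included equal levels. Of 10 tested amino acid stress genes 3 were 2-fold higher in dendritic cells (Phgdh, Mthfd2 and Chac1, the last from 5 UMIs), and of 10 redox genes Gsr and Hmox1 were lower.

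Mature dendritic cells, gated by Ccr7, Ccl22 and Cacnb3, held 339 of the 391 Slc7a11 UMIs of dendritic cells. Of 22 members tested, 4 were at least 2-fold higher (9.86% of all genes) and 2 at least 2-fold lower (8.89% of all genes) in the 181 mature cells than in the 136 other dendritic cells. Of these, 4 higher (9.46% of all genes) and 1 lower members (8.15%) had intervals without equal levels. Slc7a11 had 131 CPM in mature cells against 18.1 CPM in the others (log2 ratio 2.84, 2.43 to 3.30), with UMIs in 85 of 181 mature and 19 of 136 other cells. Slc2a6 had 18.9 CPM against 2.44 CPM, Slc16a3 53.7 CPM against 24.1 CPM and Slc38a6 8.49 CPM against 2.79 CPM. Slc7a7 had 6.18 CPM against 13.6 CPM and Slc43a3 2.32 CPM against 4.89 CPM, the last with an interval that included equal levels. Free RNA was an estimated 21.2% of the UMIs of mature cells against 4.98% of the others, which for Slc7a11 would give 22.7 CPM in mature cells and 5.34 CPM in the others. Of 8 tested amino acid stress genes 4 were 2-fold lower in mature cells (Phgdh, Asns, Psat1 and Shmt2) and 0 higher, while of 9 redox genes Gclc and Txnrd1 were higher.

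T cells had more Slc2a3 and Slc16a11 than macrophages, and less of several amino acid carriers. Of 29 members tested, 4 were at least 2-fold higher (17.9% of all genes) and 10 at least 2-fold lower (19.2% of all genes) in glioma T cells than in glioma macrophages. Intervals were clear of equal levels for 3 of the higher (17.2% of all genes) and 10 of the lower members (18.1%). Slc2a3 had 31.3 CPM in T cells against 1.497 CPM in macrophages (log2 ratio 4.38), with UMIs in 229 of 1179 T cells. Slc16a11 (MCT11), a monocarboxylate carrier, had 76 UMIs in T cells against 1 UMI in macrophages. Slc43a3 had 12.7 CPM against 4.74 CPM, and Slc1a5 42.5 CPM against 22.5 CPM, under 2-fold. Slc1a4 was higher on 12 UMIs, with an interval that included equal levels. The hexose carrier Slc2a3, the nucleobase carrier Slc43a3 and Slc16a11 were thus past 2-fold in T cells, and the glutamine carrier Slc1a5 was not.

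Slc7a8 had 0.972 CPM in T cells against 38.2 CPM in macrophages, Slc7a7 1.297 CPM against 27.3 CPM and Slc16a7 0.08104 CPM against 4.48 CPM. Slc43a2 had 17.4 CPM against 91.8 CPM and Slc16a3 50.8 CPM against 125 CPM. Slc7a11 had 24.6 CPM in T cells against 236 CPM in macrophages; its UMIs lay in 86 of 1179 T cells, and free RNA would give an estimated 9.56 CPM. Slc38a6, Slc38a7, Slc38a9 and Slc16a10 were lower as well, with log2 ratios between -1.93 and -1.12. Of 10 tested amino acid stress genes Phgdh (100.2 CPM against 6.04 CPM) and Asns (18.1 CPM against 5.397 CPM) were 2-fold higher in T cells and Sesn2 lower, and of 10 redox genes Hmox1, Nfe2l2, Gsr and Txnrd1 were lower. Over all genes, 17.9% were 2-fold higher and 19.2% 2-fold lower in T cells.

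**Figure D4:**
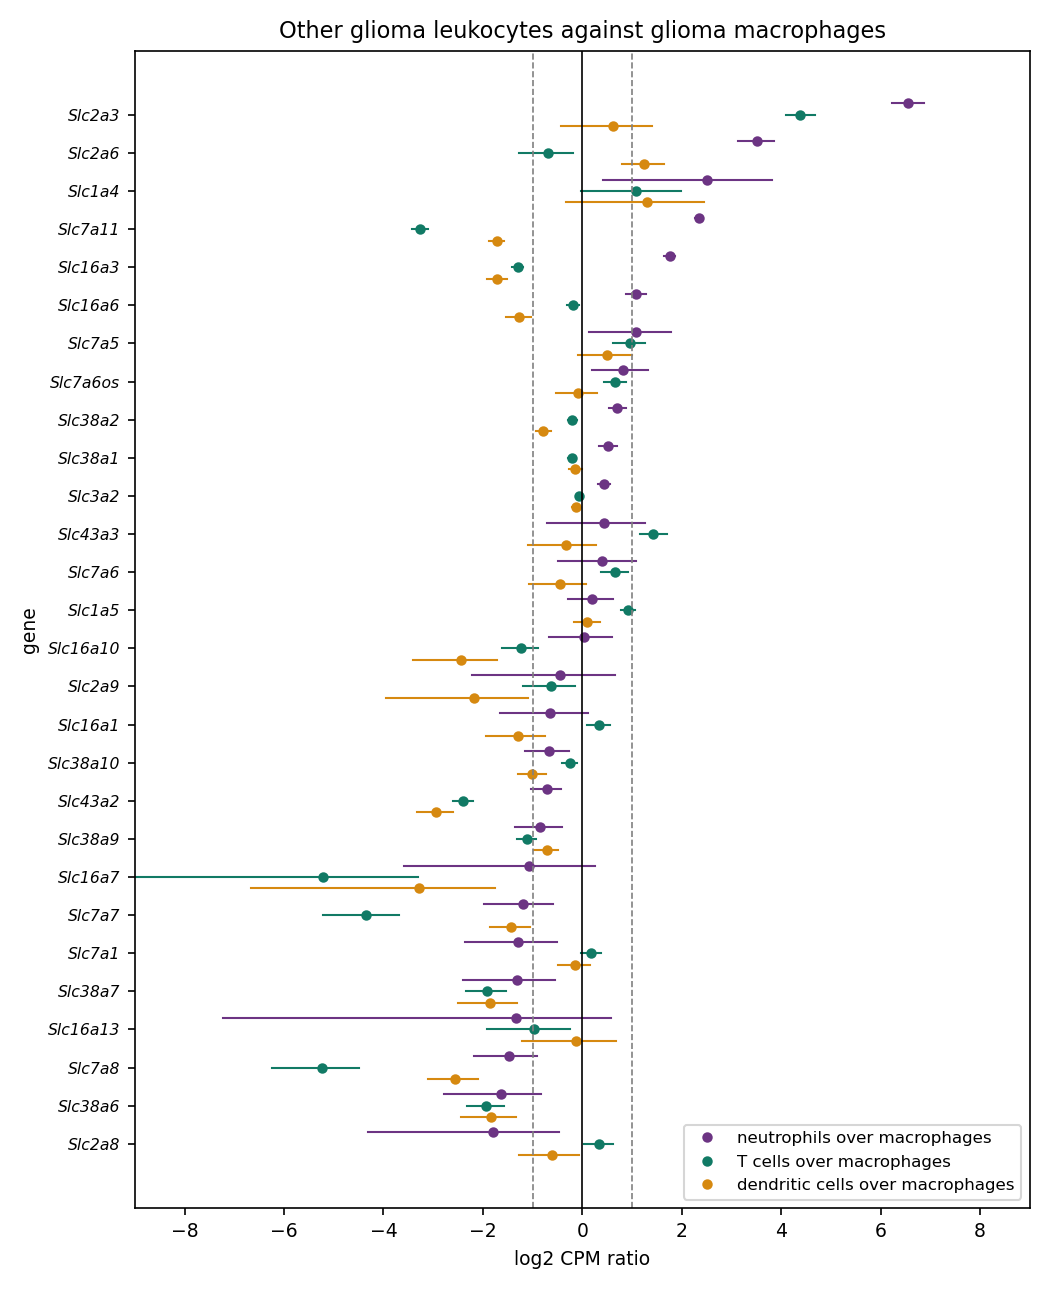
Log2 CPM ratio of tested members in glioma neutrophils (purple), T cells (green) and dendritic cells (orange), each over glioma macrophages, with exact 95% counting intervals as lines and dashed lines at 2-fold. Slc2a3 lies far to the right for neutrophils (6.55) and T cells (4.38), and Slc7a11 to the right for neutrophils (2.34) and to the left for T cells (-3.26) and dendritic cells (-1.72).

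Among T cells, Foxp3-gated regulatory cells (83) were set against CD8 T cells (314). Of 21 members tested, 3 were at least 2-fold higher (8.01% of all genes) and 2 at least 2-fold lower (6.27% of all genes) in regulatory T cells. Beyond counting error as well were 3 of the higher (7.06% of all genes) and 2 of the lower ones (4.34%). Slc16a3 had 126 CPM in regulatory T cells against 35.8 CPM in CD8 T cells (log2 ratio 1.81), with UMIs in 45 of 83 and 79 of 314 cells. Slc43a2 had 32.5 CPM against 15.05 CPM. Slc7a11 had 59.6 CPM against 19.98 CPM, but 5 regulatory T cells held 57 of its 66 UMIs, and without cycling cells its log2 ratio was -0.94 in place of 1.58. Slc7a6 (y+LAT2) had 2.71 CPM against 13.3 CPM and Slc16a10 1.81 CPM against 7.15 CPM, from 3 and 2 UMIs in regulatory T cells, and without cycling cells 0 members were 2-fold lower.

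Free RNA was an estimated 18.7% of the UMIs in regulatory T cells against 8.36% in CD8 T cells, and its part for Slc16a3 was 12.7 CPM against 5.69 CPM. With gates that asked for doubled marker UMIs, 0 members were 2-fold higher, and the log2 ratio of Slc16a3 was 0.88.

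CD4 T cells without Foxp3 (290) had 1 of 22 members at least 2-fold higher (6.54% of all genes) and 3 at least 2-fold lower (6.06% of all genes) than CD8 T cells. Of these, 1 higher (6.2% of all genes) and 3 lower members (5.53%) had intervals without equal levels. Slc16a11 had 11.8 CPM in CD4 T cells against 4.93 CPM in CD8 T cells, and 0 UMIs in regulatory T cells. Slc16a6 had 26.7 CPM against 58.9 CPM, Slc7a5 3.81 CPM against 12.3 CPM and Slc16a10 1.91 CPM against 7.15 CPM. Of 24 members tested in NK cells against T cells, 2 were at least 2-fold higher (6.63% of all genes) and 2 at least 2-fold lower (7.34% of all genes). Intervals were clear of equal levels for 1 of the higher (3.83% of all genes) and 2 of the lower members (4.97%). Slc16a10 had 24.8 CPM in NK cells against 5.67 CPM in T cells, on 20 UMIs in 16 of 87 NK cells. Slc16a3 had 19.9 CPM against 50.8 CPM and Slc43a2 6.21 CPM against 17.4 CPM, and Slc2a6 was higher on 5 UMIs.

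The 46 control T cells carried microglial RNA, with 650.04 CPM of C1qa and 139 CPM of P2ry12. With free RNA subtracted from both sums, the counts of glioma against control T cells stayed within 1.5 times of those given here. A part of microglial RNA beyond that estimate was not tested. Of 24 members tested, 4 were at least 2-fold higher (5.94% of all genes) and 6 at least 2-fold lower (15.9% of all genes) in glioma T cells than in control T cells. Beyond counting error as well were 3 of the higher (3.23% of all genes) and 4 of the lower ones (7.33%). Slc7a11 had 24.6 CPM in glioma T cells and 0 UMIs in control T cells, at least 2.59-fold higher. This bound was taken without subtracting the free RNA part of Slc7a11 in glioma T cells given above, and would be smaller with it subtracted. Slc16a3 had 50.8 CPM against 9.47 CPM and Slc2a3 31.3 CPM against 3.16 CPM, the control values from 3 UMIs and 1 UMI. Slc3a2 had 252 CPM in glioma T cells against 574 CPM in control T cells, Slc38a2 97.2 CPM against 275 CPM and Slc7a1 19.4 CPM against 44.2 CPM. The lowest ratio was that of Slc7a6os, with 16.1 CPM against 66.3 CPM. Slc43a3 was higher on 1 control UMI and Slc16a10 and Slc38a6 lower on 5 and 3 control UMIs, with intervals that included equal levels. Without cycling cells 2 members were higher in place of 4, and the log2 ratio of Slc16a10 was 0.04 in place of -1.60.

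In the control library, 4488 microglia gated by the inflammatory genes Il1a, Tnf and Gpr84 were set against the other 7750. Of 38 members tested, 4 were at least 2-fold higher (5.11% of all genes) and 2 at least 2-fold lower (5.43% of all genes) in the gated cells. Of these, 4 higher (4.9% of all genes) and 2 lower members (4.99%) had intervals without equal levels. Slc7a11 had 25.5 CPM in gated microglia against 6.56 CPM in the others (log2 ratio 1.96, 1.78 to 2.15), and Slc7a1 36.8 CPM against 14.7 CPM. Slc1a5 had 6.72 CPM against 2.65 CPM and Slc2a6 4.41 CPM against 1.196 CPM. These 4 members were higher in the gated cells, a cystine, a cationic amino acid, a glutamine and a hexose carrier. TMM scaling raised the log2 ratios of this comparison by 0.24, which left 1 of the 2 lower members past 2-fold, Slc7a14. Slc1a4 had 2.75 CPM against 6.41 CPM, Slc7a14 8 UMIs against 27, and the hexose carrier Slc2a5 206 CPM against 329.5 CPM, lower by less than 2-fold.

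Of 10 redox genes 2 were 2-fold higher in the gated microglia, Txnrd1 (133 CPM against 32.2 CPM) and Nfe2l2 (378 CPM against 176 CPM). Of 9 tested amino acid stress genes Ddit3 was higher (112 CPM against 45.7 CPM), and Atf4 had 274 CPM against 137 CPM, just under 2-fold. Over all genes, 5.11% were 2-fold higher and 5.43% 2-fold lower in the gated microglia. The gated cells held a median of 7976 UMIs against 5904 UMIs in the others.

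Border-associated macrophages, which line vessels and meninges, differed from microglia of the same library. Of 38 members tested, 9 were at least 2-fold higher (15.3% of all genes) and 10 at least 2-fold lower (9.43% of all genes) in border-associated macrophages. Intervals were clear of equal levels for 5 of the higher (7.52% of all genes) and 9 of the lower members (6.99%). Slc38a6 had 47.5 CPM in border-associated macrophages against 15.7 CPM in microglia, Slc16a10 45.7 CPM against 18.1 CPM and Slc43a2 123 CPM against 59.01 CPM. Slc1a2 had 21.1 CPM against 5.91 CPM, from 12 UMIs in 6 of 69 cells. Slc1a5, Slc2a6, Slc2a12 and Slc7a4 were higher on 1 to 7 UMIs each in border-associated macrophages. Slc38a6, Slc16a10 and Slc43a2 rested on 26 to 70 UMIs each in border-associated macrophages.

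Slc2a5 had 14.1 CPM in border-associated macrophages against 272 CPM in microglia, with an estimated 9.07 CPM from free RNA, and Slc1a3 10.6 CPM against 119 CPM. Slc7a11 had 1 UMI and Slc16a3 3 UMIs in border-associated macrophages, 1.76 CPM against 15.3 CPM and 5.28 CPM against 34.6 CPM. Slc38a1 had 28.1 CPM against 85.2 CPM, and Slc7a6 had 0 UMIs against 951, at least 2.07-fold lower. Slc2a8 (19.3 CPM against 42.8 CPM) and Slc38a9 (24.6 CPM against 52.9 CPM) were lower too, as were Slc7a5 and Slc2a9 on 2 UMIs and 1 UMI.

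Endothelial cells had the largest set of leading members, 14 of 44, near the 30.2% of all genes that this class led in. Of 42 members tested, 14 were at least 2-fold higher (29.8% of all genes) and 15 at least 2-fold lower (12.7% of all genes) in control endothelial cells than in control microglia. Beyond counting error as well were 13 of the higher (24.3% of all genes) and 15 of the lower ones (11.8%). The glutamine carrier Slc38a5 (SNAT5) had 346 CPM in endothelial cells against 0.172 CPM in microglia (log2 ratio 10.93, 10.24 to 11.82), and Slc38a3 (SNAT3) 158 CPM against 0.207 CPM. The glutamate carrier Slc1a1 (EAAT3) had 103 CPM against 0.149 CPM. These members, and Slc16a4 (112 CPM against 0.138 CPM), were nearly absent from microglia.

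Others were present in both classes. Slc16a1 (MCT1), a carrier of lactate and ketone bodies, had 290.3 CPM in endothelial cells against 11.99 CPM in microglia, and its chaperone Bsg 13235 CPM against 432 CPM. Slc7a5, which carries large neutral amino acids across the blood-brain barrier, had 221 CPM against 15.7 CPM and Slc7a1 241 CPM against 24.9 CPM. Slc38a2 had 367 CPM against 138 CPM and Slc16a9 34.4 CPM against 1.79 CPM, and Slc2a12 was higher on 7 UMIs. Slc7a5, Slc16a1 and Slc38a5 are known from the blood-brain barrier, and all were past 2-fold in endothelial cells.

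These members were not spread alike over the 120 endothelial cells. Slc16a4 had UMIs in 74 cells, Slc38a3 in 71, Slc1a1 in 61 and Slc38a5 in 51, and 5 cells held 49.03% of the Slc38a5 UMIs. Microglial members were low: Slc7a8 had 6.73 CPM in endothelial cells against 161 CPM in microglia, Slc16a6 9.73 CPM against 201 CPM and Slc38a1 4.49 CPM against 85.2 CPM. Slc16a3 had 2.24 CPM against 34.6 CPM and Slc2a5 14.2 CPM against 272 CPM, and free RNA of the control library would give an estimated 13.1 CPM of Slc2a5 in this class. Slc7a7, Slc1a3, Slc16a7, Slc16a10 and Slc2a9 were lower as well, with log2 ratios between -2.88 and -1.56. TMM scaling lowered the log2 ratios of this comparison by 0.58, and the counts stayed within 1.5 times. Of 8 lactate enzymes and hypoxia regulators Hk1 was higher and 5 lower, among them Ldhb (63.6 CPM against 608 CPM) and Hk2 (5.99 CPM against 171 CPM). Over all genes, 29.8% were 2-fold higher and 12.7% 2-fold lower in endothelial cells.

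**Figure D5:**
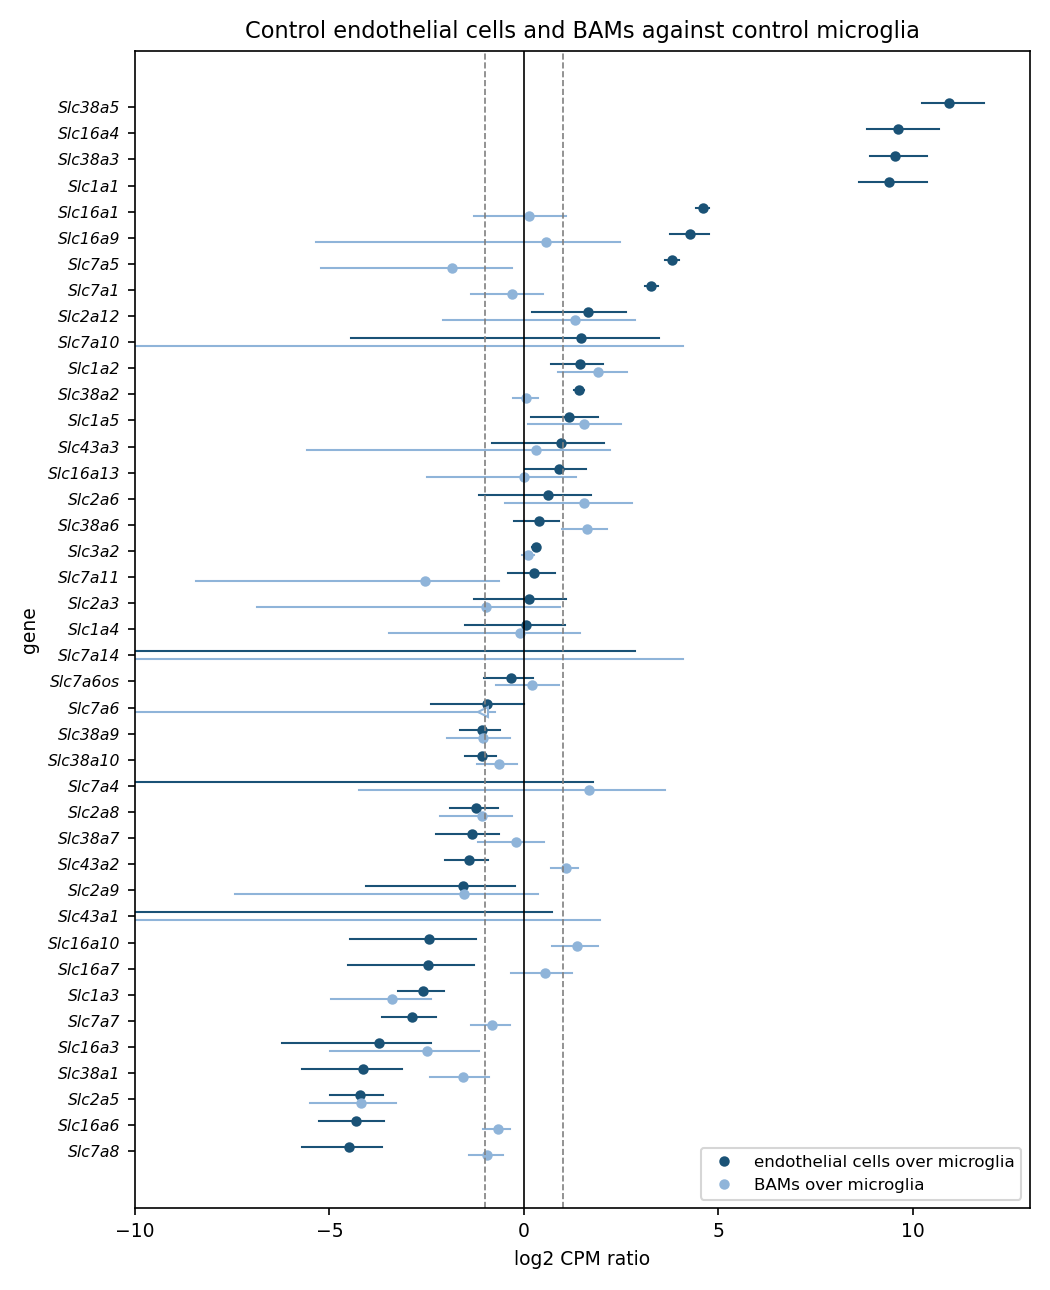
Log2 CPM ratio of tested members in control endothelial cells (dark blue) and border-associated macrophages (BAMs, light blue), each over control microglia, with exact 95% counting intervals as lines, an open triangle for a bound at 0 UMIs, lines without a point where no bound is usable and dashed lines at 2-fold. The endothelial points of Slc38a5 (10.93), Slc1a1 (9.38) and Slc38a3 (9.54) lie far to the right, and those of Slc7a8 (-4.50) and Slc16a6 (-4.31) to the left.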

How the data were processed

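Single-cell RNA of CD45+ cells from mouse glioma and control brain was deposited by the authors as raw counts of UMIs per gene and barcode, 1 unfiltered matrix per group. Per the submitters' processing notes, Cell Ranger 3.0.2, STAR and Seurat 3 were used with the builds GRCh38 and mm10; the annotation and the use of strand are not given in the sources used here.

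Barcodes with at least 1000 UMIs and at most 10% mitochondrial UMIs were kept. A class needed 5 UMIs of its own marker list, and microglia also 10 UMIs of the microglia and phagocyte lists together. As a guard against doublets, a phagocyte held at most 2 UMIs, or 10% of its own, of any other list. In the other classes another list could reach at most the own list divided by 3, or by 2 for the microglia list, with T cell markers in NK cells and phagocyte markers in dendritic cells allowed up to the own list. Microglia had a microglia list of at least 0.3 of the phagocyte list and macrophages of at most 0.1. No doublet caller was run and no cells were clustered. UMIs were summed by class and divided by the class total (CPM), with exact Poisson 95% intervals.

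Log2 ratios had 0.5 UMIs added to each sum and exact conditional binomial intervals; these cover counting error only. A gene was called higher or lower past 2-fold with 20 UMIs over both sums, and a sum at 0 was read as 3 UMIs for a bound. With 1 pooled library per group no comparison has a test or a p-value. Intervals were checked on simulated Poisson counts, the model they assume, so the check does not cover UMIs gathered in few cells. Free RNA was estimated from the profile of barcodes ranked 45000 to 90000 by UMIs.

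The text names, in each comparison, members past 2-fold (at most 10 in each direction), and beyond that rule members and pathway genes of the lists picked for their role. 1 member is counted among the members but not reported here by name. The members, pathway lists and comparisons were chosen with earlier results of these data known, and the UMI limits of the gates were set from marker UMIs. Several comparisons share control microglia or glioma macrophages and so are not independent. Python 3.11.15, numpy 2.4.6, scipy 1.17.1, pandas 2.3.3, matplotlib 3.10.9, R 4.3.3 and edgeR 4.0.16 (TMM only) were used, with GENCODE (GRCm38) and RefSeq (GRCm38.p6) annotation.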

Additional observations from a re-analysis of the deposited data

How the results depend on the processing

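Each of 32 counts of members past 2-fold, higher and lower in 16 comparisons, was recomputed under 13 alternatives: 374 of 416 values stayed within 1.5 times and 42 did not. The 163 gene ratios recomputed were all of members past 2-fold, at most 10 in each direction of a comparison. Smaller ratios named in the text were not recomputed. Of 2119 values of these 163 ratios, 5 changed sign. The minimums of 100 UMIs and of 1 UMI leave each ratio as it is by construction, so their values could not change sign. The counts of glioma macrophages against control microglia stayed within 1.5 times throughout. The cause of the changes below was not tested, except that a minimum of 100 UMIs tests fewer members and one of 1 UMI more, by construction.

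Values are given with the reported one in parentheses. With at most 5% mitochondrial UMIs, lower members in mature dendritic cells were 1 (2), and higher members in macrophages over glioma microglia 2 (5). With the mean of single-cell CPM, lower members were 1 (2) in mature dendritic cells, 5 (2) in NK cells and 4 (2) in gated microglia, and the median log2 ratio of neutrophils over macrophages was -0.54 (0.12). With free RNA subtracted, glioma against control neutrophils had 0 (3) lower, and Slc7a8 a log2 ratio of 2.12 (-1.07). Without shared barcodes, mature dendritic cells had 1 (2) lower. Without the 10% of cells with the most UMIs, glioma against control T cells had 2 (4) higher, NK cells 4 (2) lower, and the neutrophil median was -0.12 (0.12). With doubled marker UMIs, regulatory T cells had 0 (3) higher, NK cells 4 (2) lower and CD4 T cells 2 (1) higher.

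With at least 100 UMIs, higher members were 2 (4) in T cells over macrophages, 1 (2) in dendritic cells, 2 (4) in mature dendritic cells, 0 (2) in NK cells, 1 (3) in glioma over control neutrophils and 0 (1) in CD4 T cells. Lower members were then 0 (2) in mature dendritic cells, 0 (2) in regulatory T cells, 1 (2) in gated microglia, 0 (3) in glioma against control neutrophils and 1 (3) in CD4 T cells. With at least 1 UMI, higher members were 2 (0) in Arg1-gated macrophages, 8 (4) in T cells over macrophages, 4 (2) in dendritic cells, 7 (3) in regulatory T cells, 4 (2) in NK cells and 2 (1) in CD4 T cells. Lower members were 11 (6) in glioma against control T cells and 8 (3) in glioma against control neutrophils, whose median was -0.20 (0.39).

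With TMM scaling, lower members were 1 (2) in mature dendritic cells and 1 (2) in gated microglia. Without cycling cells, glioma against control T cells had 2 (4) higher, regulatory T cells 0 (2) lower, glioma against control neutrophils 1 (3) lower and macrophages over glioma microglia 3 (5) higher. The log2 ratio of Slc43a3 in macrophages over control microglia was then -0.26 (1.16), of Slc16a10 in glioma over control T cells 0.043 (-1.60) and of Slc7a11 in regulatory over CD8 T cells -0.94 (1.58). The last 2 alternatives were added after the marker UMIs had been seen. With the microglia list at 0.75 of the phagocyte list, Slc1a5 in glioma over control microglia was -1.13 (1.21), and macrophages over glioma microglia had 2 (5) higher. With relaxed gates, lower members were 4 (8) in neutrophils against macrophages, 5 (3) in glioma against control neutrophils and 1 (3) in CD4 T cells, with 3 (1) higher in CD4 T cells.

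No paired analysis was possible because each group is 1 pooled library and no barcode is tied to a sample. Spread between animals is therefore unknown, and classes of 43 to 120 cells give wide counting intervals.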

Other observations

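Keratin-bearing glioma cells, a class of 114 cells outside the comparisons, held the only sizeable Slc38a4 (SNAT4) signal, with 31 UMIs in 23 cells and 6.54 CPM. They also held 69 UMIs of Slc2a5 in 46 cells, or 14.6 CPM, while glioma macrophages of the same library held 4 UMIs. The 3088 glioma and 1067 control barcodes that passed the UMI and mitochondrial limits but no gate were not analysed here.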
